A study of Mus musculus with 36 samples.

Results

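RNA sequencing followed 37 mouse genes of the lysosome and of the pathway that acts through the transcription factor TFEB, out of 23875 genes tested in liver and 13914 tested in mouse embryonic fibroblasts (MEFs). The genes were taken by name, and all 37 passed the low-value filter in both sets. They comprise 17 hydrolases, 2 cofactors of the hydrolases (Psap and Grn), 4 subunits of the proton pump, 7 membrane and cholesterol transport proteins, the transcription factors Tfeb and Tfe3, and 5 genes of the folliculin (FLCN) and Rag GTPase arm. The livers came from male mice 4 weeks old, killed at ZT14, that is, 2 h after the lights went off. Of these mice, 3 carried Cre under the transthyretin promoter with floxed Vps15 (Ttr CRE+, Vps15f/f, also written Vps15iLKO, here the knockout) and were fasted for 24 h, 3 labelled wild type were fasted for 24 h, 3 knockout mice were fed ad libitum and 3 wild-type mice were fed ad libitum. The labels name hepatocytes as the cell type, but RNA was taken from powdered whole liver, so fewer cells of a type and less RNA per cell cannot be told apart. The fibroblasts were 1 Vps15f/f line given an adenovirus with CRE (labelled Vps15KO) or with GFP (labelled WT), and they are called here by the column headings CRE and GFP. Each heading has 3 libraries in basal high-glucose DMEM without serum, 3 after 4 h without methionine, 3 after a further 1 h and 3 after a further 4 h with methionine returned. The labels do not say whether the libraries of a fibroblast group were separate cultures, so their p-values measure the spread between these libraries, which may be technical.

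Lysosomes digest material delivered by endocytosis and autophagy with acid hydrolases, which work because a proton pump acidifies the lumen. When nutrients are plentiful, the kinase mTORC1 sits on the lysosome and phosphorylates TFEB and its relative TFE3, which keeps them in the cytoplasm, and this step needs RagC or RagD together with FLCN and its FNIP partners. When nutrients are short, TFEB and TFE3 enter the nucleus and switch on many lysosomal genes through a short element built on the letters CACGTG. Vps15, encoded by Pik3r4, is the regulatory subunit of the class 3 phosphatidylinositol kinase that makes the lipid PI3P on endosomes and autophagosomes.

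The promoters show which of these genes carry that element near their start. RefSeq windows of 250 bases before to 50 bases after the start (GRCm38.p6) were found for 33 of the 37 genes, in 38 windows, since some genes have more than 1. TCACGTGA lay in 6 of the 38 windows (15.8%) and in 0.974% of all 32851 mouse windows. GTCACGTG, read on both strands, lay in 9 windows (23.7%), against 2.25% of all windows, and the core CACGTG lay in 14 (36.8%), against 7.15%. The full palindrome, TCACGTGA with a G before it and a C after it, was in none of the 38 windows and in 0.326% of all windows. These motifs nest within each other, so the counts are not separate, and a match is a description of the letters and no evidence of binding. The genes were chosen as lysosome genes and TFEB targets, so a higher share than in all windows is not independent of that choice. The 6 windows with TCACGTGA are printed below because they show the element in 2 cathepsins, a glycosidase, both sectors of the proton pump and a lysosomal channel. Capitals mark TCACGTGA together with a directly adjoining base that makes GTCACGTG or CACGTGAC, and each sequence runs 5′ to 3′ on the strand of its gene.
Ctsa, chr2:164833742-164833784, plus strand: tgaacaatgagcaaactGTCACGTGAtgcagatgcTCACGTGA
Ctsd, chr7:142387901-142387943, minus strand: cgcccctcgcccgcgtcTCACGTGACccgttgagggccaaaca
Gla, chrX:134601209-134601250, minus strand: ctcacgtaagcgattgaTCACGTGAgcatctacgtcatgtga
Atp6v0d1, chr8:105566044-105566086, minus strand: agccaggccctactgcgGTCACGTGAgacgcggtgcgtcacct
Atp6v1a, chr16:44139367-44139408, minus strand: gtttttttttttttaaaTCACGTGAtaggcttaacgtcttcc
Mcoln1, chr8:3500456-3500498, plus strand: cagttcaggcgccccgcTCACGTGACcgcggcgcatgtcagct

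Within the printed windows the first match began at position -14 in Ctsa, -5 in Atp6v0d1, -46 in Mcoln1, -99 in Ctsd, -132 in Atp6v1a and -228 in Gla, counted in bases from the start. Glb1, Lamp1, Naglu and Sgsh held GTCACGTG without TCACGTGA, and Ctsl, Fnip1, Gaa and Rragc held the core alone.

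Levels set across genes are given per kilobase of exon, from CPM, which are counts scaled to library size and by TMM factors in liver and taken from recovered counts in fibroblasts. In fed wild-type livers Psap, the precursor of the saposins that help hydrolases reach lipids, had the highest level at 294 CPM per kb, and the membrane glycoprotein Lamp1 followed at 274 CPM per kb. The lowest levels in those livers were those of Rragd, which encodes RagD, at 0.471 CPM per kb and of the tetraspanin Cd63 at 1.43 CPM per kb. In GFP-headed basal fibroblasts the aspartic protease Ctsd led at 443 CPM per kb, Cd63 stood at 182 CPM per kb and Rragd was again lowest, at 0.0431 CPM per kb. Cd63 was thus among the highest of the members in fibroblasts and among the lowest in wild-type liver.

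Liver libraries held 9110836 to 12870944 counts and fibroblast libraries 19345029 to 21245006 counts. Pik3r4, the targeted gene, did not fall in either set: it averaged 21.1 ± 2.87 CPM in fasted knockout livers and 22.3 ± 2.07 CPM in fasted wild-type livers. It averaged 24.0 ± 1.63 CPM in fed knockout livers and 21.2 ± 3.14 CPM in fed wild-type livers (SD, n = 3 each). The labels do not say which part of the gene is deleted, so a count over the whole gene does not check them, and knockout and wild type below mean libraries labelled so. Marker sums differed widely between the livers for some cell types and little for others. Stellate markers overlapped between knockout and wild-type livers in fasted (881 to 1072 and 858 to 938 CPM) and fed animals (776 to 951 and 803 to 841 CPM). In fed animals endothelial (635 to 711 and 538 to 672 CPM) and lymphoid markers (12.8 to 15.9 and 15.6 to 17.8 CPM) overlapped too. In fasted animals both sums were higher in knockout livers (616 to 689 against 420.5 to 512 CPM, and 9.35 to 19.4 against 7.42 to 9.15 CPM). The endothelial markers were split there. Mean Lyve1 (167.6 against 35.4 CPM), Cdh5 (159.2 against 70.8 CPM) and Pecam1 (73.2 against 46.0 CPM) were higher in knockout livers. Mean Stab2, Clec4g, Kdr, Oit3 and Tek were lower, Kdr at 31.6 against 58.1 CPM and Clec4g at 71.4 against 100.3 CPM. The summed level of 20 macrophage markers, none of them at 0 in any group, was 3569 to 4110.2 CPM in fasted knockout livers and 687 to 948 CPM in fasted wild-type livers. In fed animals that sum was 4134 to 4838 CPM in knockout livers and 2078 to 2632 CPM in wild-type livers. Hepatocyte markers summed to 21993 to 25131 CPM in fasted knockout livers and 54856 to 56500.0 CPM in fasted wild-type livers, and to 20977 to 24219.6 CPM in fed knockout livers and 44922 to 47832 CPM in fed wild-type livers. Ductal markers summed to 171 to 227 CPM in fasted knockout livers and 55.1 to 64 CPM in fasted wild-type livers, and to 145 to 212 CPM in fed knockout livers and 51.7 to 59.7 CPM in fed wild-type livers. Sox9 and Spp1 made up most of that sum, with fasted means of 124 and 63 CPM in knockout and 17.8 and 25.4 CPM in wild-type livers. Krt23 was lower in knockout livers (5.43 against 11.2 CPM fasted, 1.56 against 2.0 CPM fed), as was Krt19 in fed animals (8.03 against 9.27 CPM). Neutrophil markers summed to 29.0 to 48.3 CPM in fasted knockout livers and 4.51 to 6.32 CPM in fasted wild-type livers, and to 50.2 to 60.4 CPM in fed knockout livers and 16.9 to 31.9 CPM in fed wild-type livers, with Ly6g at 0 in both wild-type groups. Of 9 fibroblast markers tested, 7 rose and 1 fell (Fn1, which hepatocytes also express) in each feeding state. Because Fn1 dominates it, the sum of that list was lower, at 1265 to 1354 CPM in fasted knockout livers and 2035 to 2445 CPM in fasted wild-type livers, and 1414 to 2098 CPM in fed knockout livers and 2418 to 3047.0 CPM in fed wild-type livers. Col1a1 averaged 129.9 CPM in fasted knockout livers and 6.46 CPM in fasted wild-type livers, and 161.5 CPM in fed knockout livers and 47.5 CPM in fed wild-type livers. Lysosomal genes are also abundant in macrophages and fibroblasts, and the part of these cells in the results below was not tested.

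Most of the genes were higher in knockout than in wild-type liver, in both feeding states. In fasted livers 25 of the 37 rose and 5 fell (edgeR's quasi-likelihood test with Benjamini-Hochberg adjustment over all genes tested, threshold 0.05), where 56.2% of all genes tested passed, 28.2% higher and 28.1% lower. In fed livers 28 rose and 2 fell, where 46.3% of all genes passed, 23.4% higher and 23.0% lower. The median log2 difference of the 37 genes was 0.61 in fasted livers and 0.67 in fed livers, against 0.01 in both states for all genes tested. These values are relative to a scaling that places the median gene near 0. With library sizes alone the median of all genes moved up by 0.51 in fasted and 0.37 in fed livers. That scaling called 11731 genes higher and 3576 lower, instead of 6722 and 6700, in fasted livers, and 9968 higher and 3092 lower, instead of 5577 and 5483, in fed livers. Of the 37 members it called 33 higher and 1 lower in fasted and 35 higher and 1 lower in fed livers. Of the 20 macrophage markers, 20 rose in fasted knockout livers, and 17 rose and none fell in fed knockout livers, while 13 of 14 hepatocyte markers tested fell in fasted and 12 of 14 in fed knockout livers.

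**Figure D1:**
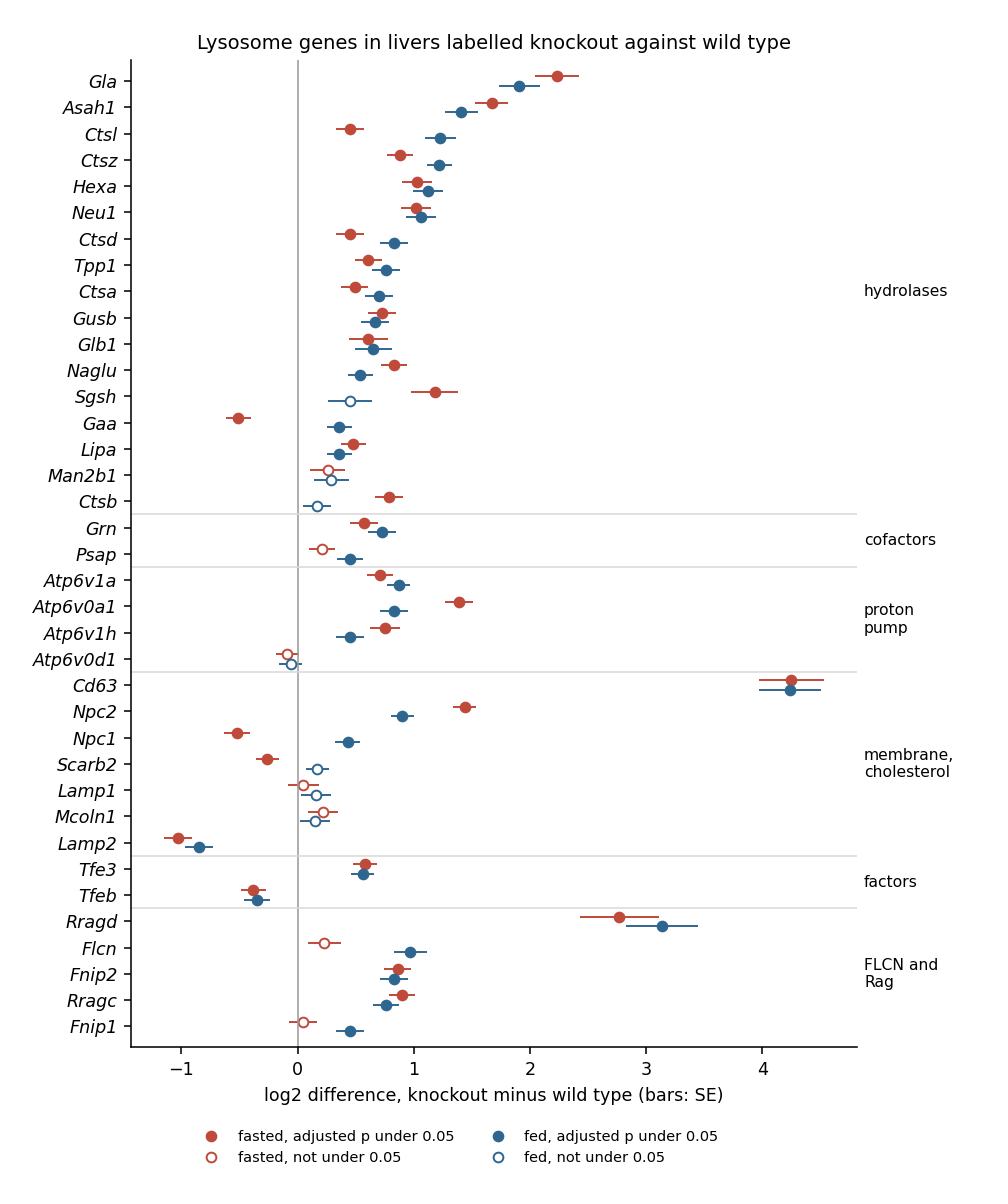
Log2 difference between knockout and wild-type livers (x axis) for the 37 genes grouped by role, with fasted livers in red and fed livers in blue, bars of 1 SE and filled points where the adjusted p was under 0.05. Cd63, Rragd and Gla lie farthest to the right, at 4.25, 2.77 and 2.23 in fasted livers, and Lamp2 lies farthest to the left at -1.03. With library sizes alone the differences of Tfeb, Atp6v0d1 and, in fasted livers, Gaa and Scarb2 turned from negative to 0 or above.

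Among the hydrolases, 15 of 17 rose and 1 fell in fasted knockout livers (median log2 difference 0.73), and 14 rose and none fell in fed knockout livers (median 0.70). Gla, the alpha-galactosidase that clears glycosphingolipids, had 31.2, 27.2 and 29.4 CPM in the 3 fasted knockout livers and 5.15, 7.01 and 6.46 CPM in the 3 fasted wild-type livers. In fed animals it had 21.6, 28.3 and 35.6 CPM in knockout livers and 7.27, 6.76 and 8.65 CPM in wild-type livers. Every knockout library was above every wild-type library, and the log2 difference was 2.23 ± 0.19 (SE) in fasted and 1.91 ± 0.18 in fed livers, with edgeR adjusted p-values of 1.35e-07 and 7.5e-07. Asah1, acid ceramidase, had log2 differences of 1.67 ± 0.14 in fasted (adjusted p = 1.28e-07) and 1.41 ± 0.14 in fed livers (adjusted p = 1.04e-06). Ctsz, a cysteine protease, differed by 0.88 ± 0.11 in fasted and 1.22 ± 0.11 in fed livers, with adjusted p-values of 5.87e-06 and 4.11e-07. The hexosaminidase subunit gene Hexa and the sialidase gene Neu1 also rose in both states: Hexa by 1.03 in fasted and 1.12 in fed livers and Neu1 by 1.02 and 1.06. Smaller rises in both states were measured for the glycosidases Naglu (0.83 in fasted and 0.54 in fed livers), Gusb (0.73 and 0.67) and Glb1 (0.61 and 0.65). The peptidases Tpp1 (0.61 and 0.76), Ctsa (0.49 and 0.70) and Ctsd (0.45 and 0.83) rose as well, as did Lipa (0.48 and 0.36), the acid lipase that frees cholesterol from its esters. The fed call for Lipa was lost without library c of the fed knockout livers (adjusted p = 0.0568) and without library a of the fed wild-type livers (adjusted p = 0.057). Man2b1, an alpha-mannosidase, passed in neither state, with log2 differences of 0.26 ± 0.15 in fasted and 0.29 ± 0.15 in fed livers. With library sizes alone Man2b1 passed in both (0.77 and 0.66). It also passed in fasted livers without a filter on low counts (0.37) and in fed livers without library b of the fed knockout livers (0.42).

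For 4 hydrolases the differences are set side by side for the 2 feeding states. Ctsl, a cysteine protease, had 613, 557 and 625 CPM in fasted knockout livers and 494, 415 and 400.4 CPM in fasted wild-type livers. In fed animals it had 583, 491 and 569 CPM in knockout livers and 219.5, 218 and 261 CPM in wild-type livers. The groups did not overlap in either state, but the gap was wider in fed animals, where fed wild-type livers were the lowest group, and the log2 difference was 0.45 ± 0.12 in fasted (adjusted p = 0.0055) and 1.23 ± 0.13 in fed livers (adjusted p = 1.4e-06). Gaa, the acid glucosidase that degrades glycogen, had 167, 182 and 172 CPM in fasted knockout livers and 243, 249.8 and 249.7 CPM in fasted wild-type livers. In fed animals it had 196, 162 and 198 CPM in knockout livers and 143, 138 and 152 CPM in wild-type livers. Knockout livers thus lay below wild-type livers in fasted animals (-0.51 ± 0.11, adjusted p = 0.000729) and above them in fed animals (0.36 ± 0.11, adjusted p = 0.0103), although with library sizes alone the fasted difference was 0.00 and without a filter on low counts the fed call was lost (0.36, adjusted p = 0.0513). Ctsb, another cysteine protease, rose in fasted knockout livers (0.79 ± 0.12 (SE), adjusted p = 4.97e-05) and did not pass in fed ones (0.17 ± 0.12 (SE), adjusted p = 0.262). With library sizes alone the fed value of Ctsb passed (0.55). The heparan sulfatase gene Sgsh rose in fasted knockout livers (1.18 ± 0.20, adjusted p = 0.000139) and missed the threshold in fed ones (0.45 ± 0.19, adjusted p = 0.06). The fed value of Sgsh passed with RLE scaling factors (adjusted p = 0.0487), with library sizes alone (0.82, adjusted p = 0.00119) and without library b of the fed knockout livers (0.62, adjusted p = 0.0109), and its interaction of fasting and genotype did not pass (0.73, adjusted p = 0.1). That interaction did pass with library sizes alone (0.87, adjusted p = 0.0389) and without a filter on low counts (0.85, adjusted p = 0.0299). It also passed without library b of the fasted knockout livers (0.88, adjusted p = 0.043). The counts of Ctsd, Ctsl, Sgsh, Ctsa, Ctsb and Hexa are uncertain, because 12.8% to 34.4% of their exonic bases overlap another gene and the strand setting used in counting is not given in the sources used here. Of the cofactors, Grn, which encodes progranulin, rose in both states (0.57 in fasted and 0.73 in fed livers), and Psap did not pass in fasted livers (0.21, adjusted p = 0.126) and rose in fed livers (0.45, adjusted p = 0.00408). The fasted value of Psap passed with DESeq2 (0.25) and with library sizes alone (0.72).

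**Figure D2:**
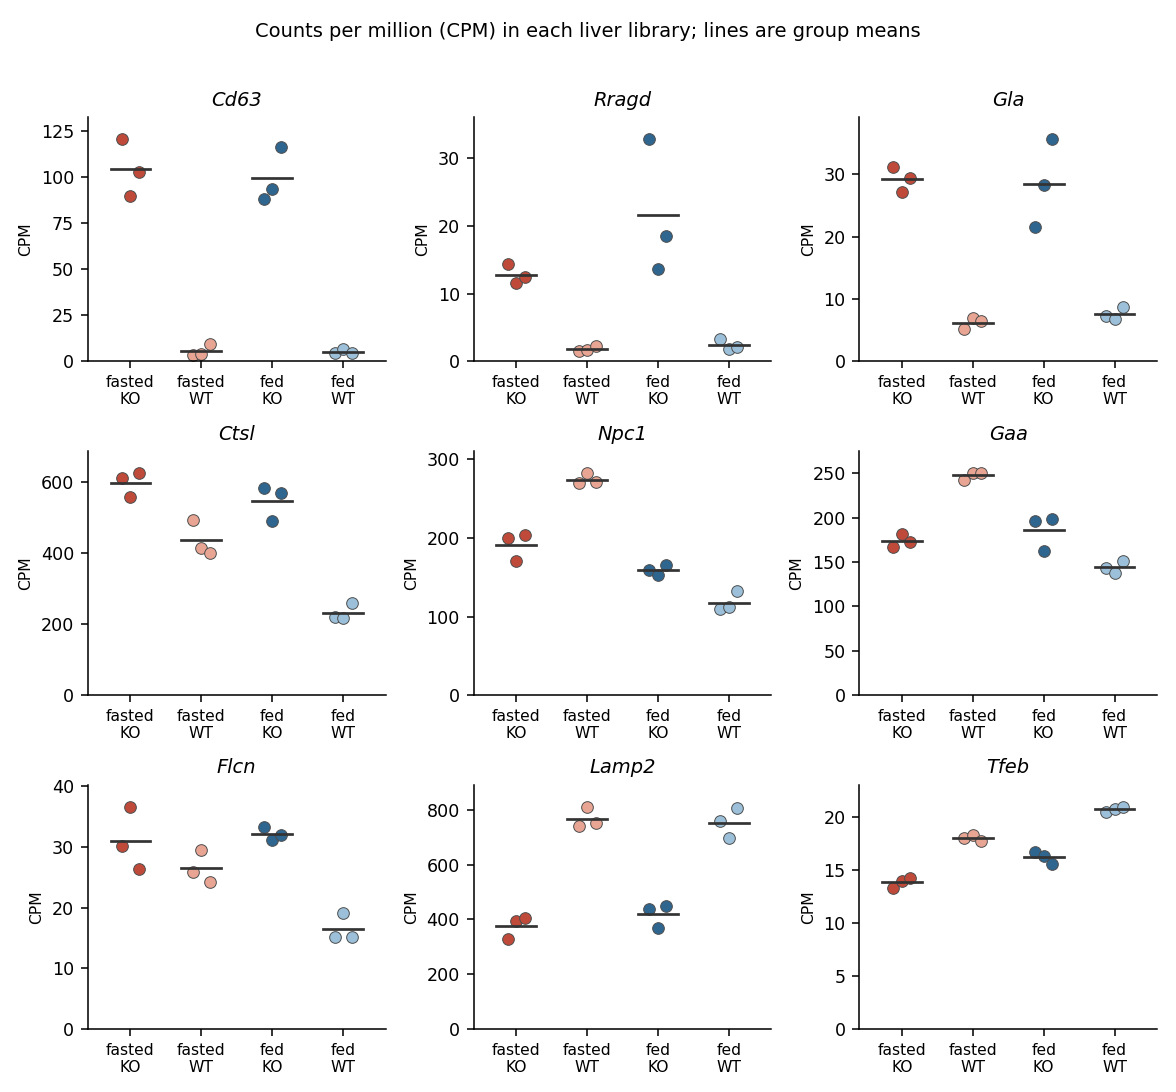
Level in CPM (y axis) of 9 of the genes in each of the 12 liver libraries, with fasted knockout, fasted wild-type, fed knockout and fed wild-type livers from left to right, 1 point per library and a line at each group mean. Cd63, Rragd and Gla are high in all 6 knockout libraries, Lamp2 is low in them, and Npc1 and Gaa are highest in fasted wild-type livers.

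Of the proton pump, 3 of 4 subunit genes rose and none fell in each feeding state (median log2 difference 0.73 in fasted and 0.64 in fed livers). Atp6v0a1, which encodes a subunit of the membrane sector, was 399 ± 44.6 CPM in fasted knockout livers and 152 ± 12.5 CPM in fasted wild-type livers (SD, n = 3 each). It was 278 ± 20.2 CPM in fed knockout livers and 156 ± 11.9 CPM in fed wild-type livers, which gave log2 differences of 1.39 ± 0.12 (adjusted p = 1.44e-07) and 0.83 ± 0.12 (adjusted p = 3.8e-05) in the 2 states. Atp6v1a and Atp6v1h, of the catalytic sector, rose by 0.71 and 0.75 in fasted and by 0.87 and 0.45 in fed livers. Atp6v0d1, a membrane-sector subunit whose promoter is printed above, did not pass, with -0.09 ± 0.10 in fasted and -0.06 ± 0.10 in fed livers, and with library sizes alone it turned to 0.42 and 0.31.

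The membrane and cholesterol transport genes did not move together: 2 of 7 rose and 3 fell in fasted knockout livers (median 0.05), and 3 rose and 1 fell in fed knockout livers (median 0.17). Cd63, a tetraspanin of late endosomes and lysosomes, had 120.5, 90 and 103 CPM in fasted knockout livers and 3.22, 4.01 and 9.35 CPM in fasted wild-type livers. In fed animals it had 88, 93.8 and 116 CPM in knockout livers and 4.57, 6.65 and 4.58 CPM in wild-type livers. The groups were far apart in both states, and the log2 differences of 4.25 ± 0.28 (adjusted p = 1.29e-08) and 4.24 ± 0.27 (adjusted p = 2.02e-08) were the largest among the 37 genes. Most of the fibroblast markers above, though not Fn1, also rose in knockout livers, and Cd63 was among the highest members in fibroblasts. From fed to fasted wild-type livers the means of all these markers but Pdgfra fell, Col1a1 from 47.5 to 6.46 CPM. Mean Cd63 was 5.27 CPM in fed and 5.53 CPM in fasted wild-type livers. The summed macrophage and ductal markers above were also higher in knockout livers. The part of fibroblasts or of any other cell type in the Cd63 result was not tested. Lamp2, whose product coats the lysosomal membrane and takes part in autophagy, moved the other way, with 330.2, 393 and 406 CPM in fasted knockout livers and 739.8, 808 and 751 CPM in fasted wild-type livers. In fed animals Lamp2 had 437, 369 and 448 CPM in knockout livers and 757, 697 and 805 CPM in wild-type livers. All 6 knockout libraries were below all 6 wild-type libraries, by -1.03 ± 0.12 on the log2 scale in fasted (adjusted p = 3.75e-06) and -0.85 ± 0.12 in fed livers (adjusted p = 3.87e-05). Its relative Lamp1 had 738, 760.4 and 777 CPM in fasted knockout livers and 662, 807 and 735 CPM in fasted wild-type livers. Fed animals had Lamp1 at 945, 684 and 832 CPM in knockout livers and 696, 708 and 795 CPM in wild-type livers. The Lamp1 groups overlapped in both states, and neither difference passed (0.05 ± 0.13 in fasted and 0.16 ± 0.13 in fed livers). With library sizes alone both Lamp1 differences passed, at 0.56 and 0.53. Mcoln1, a lysosomal calcium channel, had 101, 88.8 and 92.5 CPM in fasted knockout livers and 72.3, 87.8 and 82.6 CPM in fasted wild-type livers. Fed animals had Mcoln1 at 88.7, 75.6 and 109 CPM in knockout livers and 90.6, 75.1 and 80.5 CPM in wild-type livers. Mcoln1 passed in neither state (0.22 ± 0.13 in fasted and 0.15 ± 0.13 in fed livers), but in both with library sizes alone (0.73 and 0.52).

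The cholesterol exporters Npc2 and Npc1, which hand cholesterol from the lumen to the membrane, parted in fasted animals. Npc2 rose in both states, by 1.44 ± 0.10 in fasted (adjusted p = 2.03e-08) and 0.90 ± 0.10 in fed livers (adjusted p = 2.9e-06). Npc1 had 199.8, 170.2 and 203 CPM in fasted knockout livers and 269.8, 282 and 271 CPM in fasted wild-type livers. In fed animals Npc1 had 159, 153 and 165 CPM in knockout livers and 109, 112 and 132 CPM in wild-type livers. Knockout livers were therefore lower than wild-type livers when fasted (-0.52 ± 0.11, adjusted p = 0.000857) and higher when fed (0.43 ± 0.11, adjusted p = 0.00455), and with library sizes alone the fasted difference was -0.01 with an adjusted p of 0.951. Scarb2, a lysosomal membrane protein and sorting receptor, was slightly lower in fasted knockout livers (-0.26 ± 0.10 (SE), adjusted p = 0.0461), a difference that turned to 0.25 with library sizes alone. That call was lost when any 1 of the 6 fasted libraries was left out (adjusted p = 0.058 to 0.2), and Scarb2 did not pass in fed livers (0.17 ± 0.10) except with library sizes alone (0.55).

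Of the FLCN and Rag genes, 3 of 5 rose in fasted knockout livers (median 0.86) and all 5 rose in fed knockout livers (median 0.83). Flcn, which encodes the folliculin subunit of the activator of RagC and RagD, had 30.1, 36.5 and 26.4 CPM in fasted knockout livers and 25.8, 29.4 and 24.2 CPM in fasted wild-type livers. In fed animals it had 33.3, 31.2 and 32 CPM in knockout livers and 15.1, 19.1 and 15.1 CPM in wild-type livers. The fed wild-type libraries stood below all others, and the difference was 0.23 ± 0.14 in fasted livers (adjusted p = 0.178) and 0.97 ± 0.14 in fed livers (adjusted p = 4.88e-05). Fnip1, a folliculin partner, had 35.9, 34.5 and 40.3 CPM in fasted knockout livers and 32.7, 40.3 and 34.1 CPM in fasted wild-type livers. Fed animals had Fnip1 at 32.9, 40.8 and 36.4 CPM in knockout livers and 26.9, 27 and 26.6 CPM in wild-type livers. Its fasted groups overlapped (0.05 ± 0.12 (SE), adjusted p = 0.769), while the fed groups did not (0.45 ± 0.12 (SE), adjusted p = 0.00622). With library sizes alone both Flcn and Fnip1 also passed in fasted livers, at 0.74 and 0.56. Fnip2, the other folliculin partner, had 36.7, 38.3 and 44 CPM in fasted knockout livers and 20.7, 23.5 and 21.3 CPM in fasted wild-type livers. Fed animals had Fnip2 at 39.1, 42.3 and 41.3 CPM in knockout livers and 22, 20.8 and 26.1 CPM in wild-type livers. The knockout libraries were the higher in both states (0.86 ± 0.12 in fasted, adjusted p = 2.21e-05, and 0.83 ± 0.12 in fed livers, adjusted p = 3.95e-05). Rragc, which encodes RagC, had 75.1, 82.3 and 90.3 CPM in fasted knockout livers and 46.1, 45 and 41.2 CPM in fasted wild-type livers. Fed animals had Rragc at 71.1, 68.8 and 72.1 CPM in knockout livers and 45.1, 39.4 and 40.8 CPM in wild-type livers. Again the groups did not overlap, with differences of 0.90 ± 0.11 in fasted (adjusted p = 3.56e-06) and 0.76 ± 0.11 in fed livers (adjusted p = 3.12e-05). Rragd had 14.4, 11.6 and 12.5 CPM in fasted knockout livers and 1.55, 1.75 and 2.34 CPM in fasted wild-type livers. Fed animals had Rragd at 32.8, 13.7 and 18.6 CPM in knockout livers and 3.32, 1.85 and 2.14 CPM in wild-type livers. All knockout libraries were above all wild-type libraries, by 2.77 ± 0.34 in fasted (adjusted p = 6.09e-06) and 3.14 ± 0.31 in fed livers (adjusted p = 1.18e-06), and library a of the fed knockout livers was the highest.

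The 2 transcription factors moved in opposite directions. Tfe3 had 91.3, 90.9 and 96.9 CPM in fasted knockout livers and 59.3, 66.8 and 60.1 CPM in fasted wild-type livers. Fed animals had Tfe3 at 99.2, 93.7 and 90.8 CPM in knockout livers and 58.2, 69.7 and 64 CPM in wild-type livers. It was higher in knockout livers in both states (0.58 ± 0.10 in fasted, adjusted p = 0.00019, and 0.56 ± 0.10 in fed livers, adjusted p = 0.000349), with no overlap. Tfeb had 13.3, 14 and 14.2 CPM in fasted knockout livers and 18, 18.3 and 17.7 CPM in fasted wild-type livers. Fed animals had Tfeb at 16.7, 16.3 and 15.6 CPM in knockout livers and 20.5, 20.7 and 20.9 CPM in wild-type livers. The knockout libraries were the lower in both states (-0.38 ± 0.11 in fasted, adjusted p = 0.00822, and -0.35 ± 0.11 in fed livers, adjusted p = 0.0138), but with library sizes alone the differences were 0.13 and 0.02. The fed Tfeb call was lost without library c of the fed knockout livers (adjusted p = 0.0551) and with DESeq2 (adjusted p = 0.0525), and without a filter on low counts both calls were lost (-0.26, adjusted p = 0.358 in fasted, and -0.36, adjusted p = 0.148 in fed livers). RNA levels do not show where the TFEB and TFE3 proteins are or how they are phosphorylated.

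Other genes of the same pathway were counted in the same way. Of 39 other lysosomal hydrolases tested, 21 rose and 5 fell in fasted knockout livers and 19 rose and 2 fell in fed ones. The strongest calls were those of the asparaginyl protease Lgmn (2.26 ± 0.12 in fasted and 1.48 ± 0.11 in fed livers), the nuclease gene Dnase2a (1.26 ± 0.11 and 1.22 ± 0.11), the protease Ctss in fasted livers (2.49 ± 0.18) and the sulfatase Galns in fed livers (2.23 ± 0.19). Of 17 other pump subunits, 13 rose in fasted and 11 in fed knockout livers and none fell, among them the accessory subunit Atp6ap2 (1.33 ± 0.11 in fasted and 1.16 ± 0.11 in fed livers), Atp6v1b2 (0.88 ± 0.11 and 0.90 ± 0.11), Atp6v1g1 in fasted livers (1.17 ± 0.12) and Atp6v0e in fed livers (0.66 ± 0.10). Of 35 other membrane and delivery genes, 20 rose and 6 fell in fasted and 19 rose and 7 fell in fed knockout livers, led by Cd68 (4.33 ± 0.17 and 2.15 ± 0.15), Gpnmb (7.88 ± 0.47 and 6.22 ± 0.40) and the transport GTPase Arl8a (1.93 ± 0.12 and 1.55 ± 0.11). Cd68, Gpnmb and Ctss are also on the macrophage marker list. Of 29 other nutrient-sensing regulators and MiT factors, 7 rose and 6 fell in each state. These included the arginine sensor Castor1 (1.78 ± 0.23 in fasted and 1.34 ± 0.23 in fed livers), Sesn2 (1.62 ± 0.16 in fed livers), which encodes a leucine sensor, the kinase gene Mtor (0.92 ± 0.12 in fed livers), the mTORC1 subunit gene Rptor (-0.78 ± 0.11 in fasted livers) and Nprl2, a subunit of the GATOR1 brake (-0.96 ± 0.13 in fasted livers). All of these named values had adjusted p-values under 0.05 with edgeR.

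Between fasted and fed animals fewer of the genes differed, 1 in knockout livers and 10 in wild-type livers. In knockout livers the 1 gene of 37 was higher in fasted animals, where 1.39% of all genes tested passed (0.792% higher and 0.599% lower). That background rests on single libraries: 332 genes passed with all of them, against 4 without library a or c of the fasted knockout livers, 1242 without library b of them, 15 without library a and 51 without library c of the fed knockout livers, and 27 with the compared groups alone. In wild-type livers 6 of the 37 were higher in fasted than in fed animals and 4 were lower, where 26.3% of all genes tested passed and 12.4% passed as higher, and the median difference was 0.00 against -0.01 for all genes. With library sizes alone the knockout livers gave 160 genes higher and 275 lower instead of 189 and 143 among all genes. That scaling gave 4 members higher and 9 lower in wild-type livers, and 1788 higher and 5216 lower instead of 2957 and 3333 among all genes, and the median of all genes moved by -0.19. Of the 20 macrophage markers, 1 was lower in fasted than in fed knockout livers, and all 20 were lower in fasted than in fed wild-type livers. The comparisons of fasting share their livers with those of genotype and are not independent of them.

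Npc1, with the per-library values given above, rose by 1.22 ± 0.11 in fasted wild-type livers (adjusted p = 2.15e-06), followed by Ctsl (0.91 ± 0.12, adjusted p = 8.22e-05), Gaa (0.78 ± 0.11, adjusted p = 7.49e-05) and Flcn (0.69 ± 0.15, adjusted p = 0.00261). For each of these 4 genes, all 3 fasted wild-type libraries were above all 3 fed ones. Fnip1 (0.41 ± 0.12 (SE), adjusted p = 0.0218) and Scarb2 (0.39 ± 0.10 (SE), adjusted p = 0.0122) also passed. Fnip1, however, lost its call without library b of the fasted or library a, b or c of the fed wild-type livers (adjusted p = 0.0594 to 0.125) and Scarb2 without library b of either group (0.055 and 0.0579). Without a filter on low counts both were lost (adjusted p = 0.23 for Fnip1 and 0.199 for Scarb2). Both were lost with library sizes alone too (adjusted p = 0.198 and 0.14). The 4 genes that fell in fasted wild-type livers were Npc2 (-0.73 ± 0.10, adjusted p = 8.11e-05), Ctsb (-0.58 ± 0.12, adjusted p = 0.00252), Sgsh (-0.80 ± 0.21, adjusted p = 0.0096) and Asah1 (-0.43 ± 0.14, adjusted p = 0.0385). The Asah1 call was lost without library a or b of the fasted or library a or c of the fed wild-type livers (adjusted p = 0.0804 to 0.145). By class, 2 of 17 hydrolases rose and 3 fell, 2 of 7 membrane genes rose and 1 fell, 2 of 5 FLCN and Rag genes rose, and none of the 4 pump genes, the 2 cofactors or the 2 transcription factors passed. Tfeb did not pass (-0.20 ± 0.11) and neither did Tfe3 (-0.04 ± 0.10, adjusted p = 0.203 and 0.8). Other settings changed some of these results. Scaling by library sizes alone called Tfeb (-0.39, adjusted p = 0.015) and Atp6v1a (-0.3, adjusted p = 0.0411) lower. It also called Glb1 (-0.54), Naglu (-0.38) and Man2b1 (-0.45) lower. Grn passed as higher with DESeq2 (0.3, adjusted p = 0.0375) and with Ensembl genes only (0.34, adjusted p = 0.0308), as did Ctsz with Ensembl genes only (0.29). In knockout livers the 1 call was Atp6v0a1 (0.52 ± 0.12 (SE), adjusted p = 0.0415), and it was lost without any 1 of library a or c of the fasted or library a, b or c of the fed knockout livers (adjusted p = 0.0854 to 0.164).

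**Figure D3:**
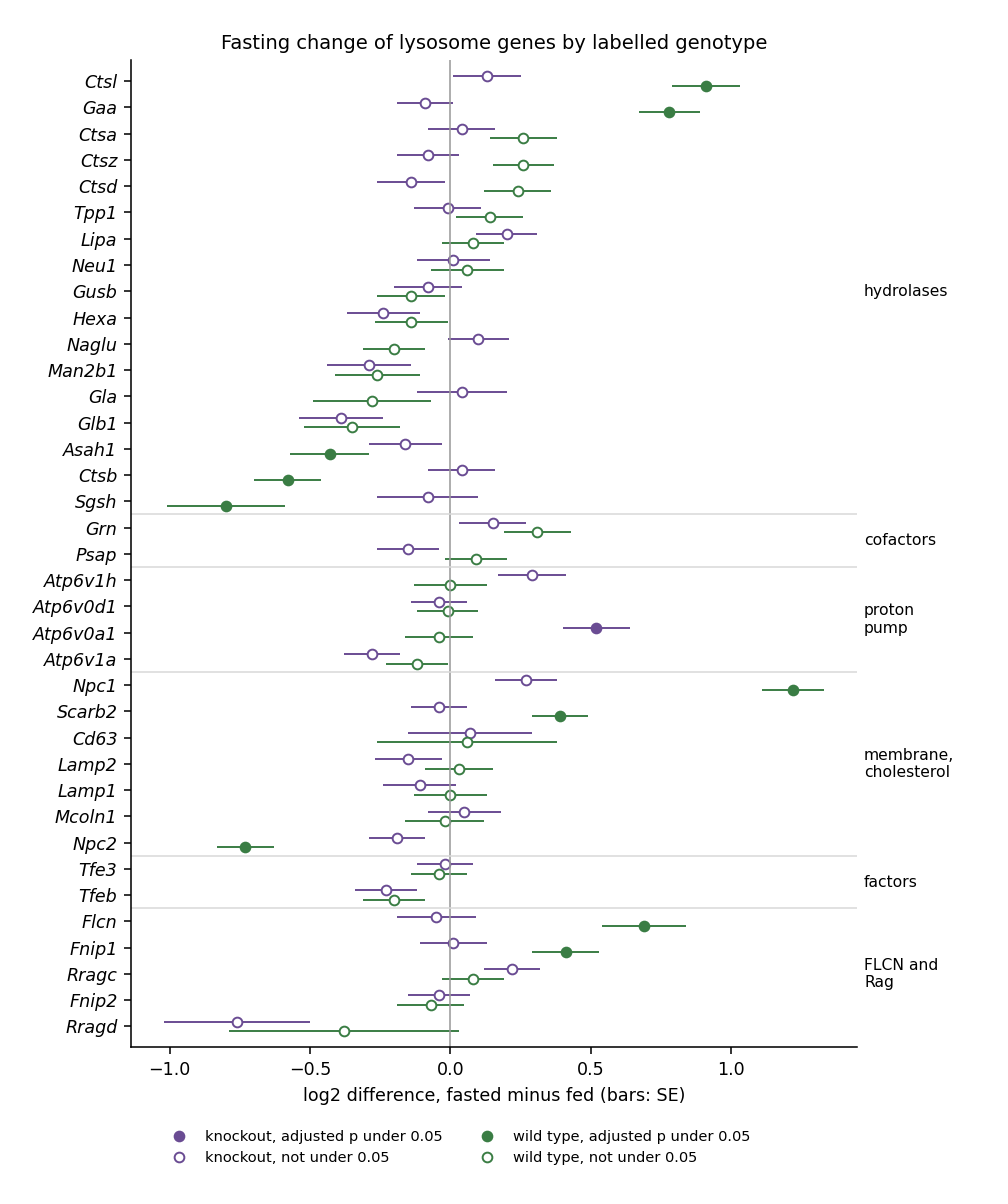
Log2 difference between fasted and fed livers (x axis) for the 37 genes grouped by role, with knockout livers in purple and wild-type livers in green, bars of 1 SE and filled points where the adjusted p was under 0.05. The knockout points of Npc1, Ctsl, Gaa and Flcn lie between -0.09 and 0.27, and their wild-type points lie at 1.22, 0.91, 0.78 and 0.69.

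The response to fasting itself differed between the genotypes for 7 of the 37 genes, 3 with a higher and 4 with a lower response in knockout livers, where 12.1% of all genes passed this test of the interaction (6.35% higher and 5.7% lower). The 4 genes with a lower response were Npc1 (-0.95 ± 0.16, adjusted p = 0.0011), Gaa (-0.87 ± 0.15, adjusted p = 0.00152), Ctsl (-0.78 ± 0.17, adjusted p = 0.00903) and Flcn (-0.74 ± 0.20, adjusted p = 0.0241). Npc2 (0.54 ± 0.14, adjusted p = 0.0203), Ctsb (0.62 ± 0.17, adjusted p = 0.028) and Atp6v0a1 (0.56 ± 0.17, adjusted p = 0.0399) had the higher response. Npc1, Gaa and Ctsl kept their calls whichever of the 12 libraries was left out. Flcn lost its call with library sizes alone (-0.6, adjusted p = 0.0652) and without a filter on low counts (-0.62, adjusted p = 0.0773). Flcn also lost its call without 6 of the 12 (library a or c of the fasted knockout, b of the fasted wild-type, a of the fed knockout and a or c of the fed wild-type livers, adjusted p = 0.0547 to 0.077). Ctsb lost it without library c of the fasted knockout, a of the fed knockout and b or c of the fed wild-type livers (0.053 to 0.0725). Npc2 lost it without library b of the fed wild-type livers (0.055) and Atp6v0a1 without 9 of the 12 libraries (0.0526 to 0.097). Other genes with such a difference included the macrophage-listed Cd68 (2.18 ± 0.21) and Ctss (1.53 ± 0.24). Of the 20 macrophage markers 17 passed with a higher response in knockout livers. Hyal2, a hyaluronidase gene (-0.92 ± 0.15), and Sesn2 (-1.71 ± 0.21) had a lower one. With library sizes alone all genes passed 2232 higher and 1006 lower instead of 1517 and 1362, and the members 4 higher and 3 lower.

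In fibroblasts the values are the log2 values deposited by the authors after a variance-stabilizing transformation, so differences between low values are understated. Summed fibroblast markers were 11962 to 19278 CPM across the 24 libraries, and of the 20 macrophage markers 13 were listed. Clec4f, Timd4 and Ccr2, which mark liver macrophages and monocytes, had at most 1 count in any library, whereas Gpnmb had up to 20322 counts. Library 3 of the CRE-headed 4 h replenished cells stood apart from the other 2, with a chi-square per degree of freedom of 16.3 and 18.1 against 1.81 to 4.71 in the other pairs within a group. The groups did not sort by heading. The smallest mean absolute log2 difference over all genes tested was between CRE-headed deprived and GFP-headed 4 h replenished cells (0.128), and the next was between CRE-headed basal and GFP-headed 1 h replenished cells (0.132). For comparison it was 0.149 between CRE-headed deprived and basal cells, 0.137 between GFP-headed deprived and basal cells, 0.267 between CRE- and GFP-headed basal cells and 0.375 between GFP-headed 4 h replenished and basal cells. Deprived and 1 h replenished cells of the same heading were farther apart (0.284 under CRE and 0.287 under GFP) than those of opposite headings (0.176 between CRE-headed deprived and GFP-headed 1 h cells, and 0.202 between CRE-headed 1 h and GFP-headed deprived cells). CRE-headed 1 h cells were likewise nearer to GFP-headed basal cells (0.175) than to GFP-headed 1 h cells (0.251). It is therefore in doubt whether the headings name the same cells in the replenished media as in the basal and deprived media, and the files used here do not settle it. All comparisons below go by the column headings. Those between CRE and GFP hold, in any medium, only if the headings are right. So do the interaction of deprivation and heading and the comparisons of replenished with deprived media. If the headings of the replenished media were exchanged, the signs of CRE against GFP at 1 h and 4 h would be the opposite. If those of the basal and deprived media were exchanged instead, the signs in these media and of that interaction would be. The distances do not tell which. Pik3r4 was higher under the CRE heading in basal (0.23), deprived (0.21) and 1 h replenished cells (0.15) and did not pass at 4 h (0.05), by limma.

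Most of the genes were higher after 4 h without methionine under both headings. In CRE-headed cells 21 of 37 were higher in deprived than in basal medium and 1 was lower (limma with Benjamini-Hochberg adjustment), where 28.5% of all genes tested passed, 15.0% higher and 13.5% lower. In GFP-headed cells 33 were higher and 1 was lower, where 23.6% of all genes passed, 10.0% higher and 13.6% lower. The median difference of the 37 genes was 0.18 in CRE-headed and 0.31 in GFP-headed cells, against 0.00 and -0.01 for all genes. In CRE-headed cells 7 of 17 hydrolases, 1 of 2 cofactors, 3 of 4 pump genes, 5 of 7 membrane genes and all 5 FLCN and Rag genes rose. In GFP-headed cells 15 of 17 hydrolases, both cofactors, 3 of 4 pump genes, all 7 membrane genes and all 5 FLCN and Rag genes rose.

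Gla was 10.37, 10.50 and 10.47 in deprived and 9.66, 9.70 and 9.66 in basal CRE-headed cells. Under GFP, Gla was 10.26, 10.32 and 10.32 in deprived and 9.57, 9.53 and 9.52 in basal medium, on the log2 scale. The deprived libraries were all the higher (0.78 ± 0.05 under CRE, adjusted p = 3.07e-13, and 0.76 ± 0.05 under GFP, adjusted p = 5.77e-13). Neu1 rose by 0.42 ± 0.06 under CRE and 0.77 ± 0.06 under GFP, Naglu by 0.40 ± 0.06 and 0.46 ± 0.06, and Tpp1 by 0.18 ± 0.04 and 0.39 ± 0.04. Ctsl was 14.48, 14.48 and 14.46 in deprived and 14.44, 14.41 and 14.32 in basal CRE-headed cells. Under GFP, Ctsl was 14.80, 14.81 and 14.67 in deprived and 14.57, 14.46 and 14.31 in basal medium. It did not pass under CRE (0.08 ± 0.06 (SE), adjusted p = 0.302) and rose under GFP (0.31 ± 0.06 (SE), adjusted p = 0.000226). Grn rose under both headings (0.44 ± 0.04 under CRE and 0.61 ± 0.04 under GFP), and Psap under GFP (0.21 ± 0.04). Among the pump genes, Atp6v1h rose by 0.56 ± 0.05 under CRE and 0.31 ± 0.05 under GFP, Atp6v0d1 by 0.46 ± 0.04 and 0.40 ± 0.04, and Atp6v1a by 0.30 ± 0.04 and 0.39 ± 0.04, while Atp6v0a1 passed under neither heading (0.04 and 0.08).

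Of the membrane genes, Lamp1 was 14.59, 14.60 and 14.61 in deprived and 14.28, 14.25 and 14.23 in basal CRE-headed cells. Under GFP, Lamp1 was 14.71, 14.70 and 14.67 in deprived and 14.31, 14.29 and 14.27 in basal medium. The deprived libraries were above the basal ones under each heading, by 0.34 ± 0.03 (CRE) and 0.41 ± 0.03 (GFP). Mcoln1 was 10.71, 10.72 and 10.76 in deprived and 10.26, 10.30 and 10.43 in basal CRE-headed cells. Under GFP, Mcoln1 was 10.83, 10.80 and 10.73 in deprived and 10.34, 10.27 and 10.29 in basal medium. Its deprived libraries too were above the basal ones, by 0.41 ± 0.05 (CRE) and 0.49 ± 0.05 (GFP). Npc1 rose by 0.53 ± 0.05 under CRE and 0.54 ± 0.05 under GFP. The other membrane genes had smaller differences: Npc2 rose by 0.33 under CRE and 0.36 under GFP, and Lamp2 by 0.15 and 0.24. Scarb2 and Cd63 did not pass under CRE (0.09 and 0.10) and rose under GFP (0.29 and 0.17).

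The FLCN and Rag genes had the highest class median under each heading, 0.55 in CRE-headed and 0.49 in GFP-headed cells. Fnip2 was 11.10, 11.20 and 11.15 in deprived and 10.36, 10.32 and 10.27 in basal CRE-headed cells. Under GFP, Fnip2 was 10.82, 10.75 and 10.75 in deprived and 10.02, 10.09 and 10.08 in basal medium. Deprived and basal libraries of a heading did not overlap, and the differences were 0.83 ± 0.05 (CRE) and 0.71 ± 0.05 (GFP). Fnip1 was 11.38, 11.35 and 11.29 in deprived and 10.86, 10.74 and 10.76 in basal CRE-headed cells. Under GFP, Fnip1 was 11.11, 11.09 and 11.13 in deprived and 10.66, 10.58 and 10.64 in basal medium. Nor did those of Fnip1, with differences of 0.55 ± 0.05 (CRE) and 0.49 ± 0.05 (GFP). Flcn was 11.47, 11.43 and 11.48 in deprived and 11.15, 11.15 and 11.11 in basal CRE-headed cells. Under GFP, Flcn was 11.17, 11.11 and 11.08 in deprived and 10.67, 10.74 and 10.70 in basal medium (0.32 ± 0.05 and 0.42 ± 0.05). Every deprived library of Flcn was above every basal one of its heading. Rragc was 11.48, 11.50 and 11.49 in deprived and 11.10, 11.11 and 11.04 in basal CRE-headed cells. Under GFP, Rragc was 11.24, 11.27 and 11.26 in deprived and 11.01, 10.93 and 10.96 in basal medium (0.41 ± 0.04 and 0.29 ± 0.04). The same was true of Rragc. Rragd rested on few reads, 41, 27 and 29 in deprived and 16, 7 and 16 in basal CRE-headed cells, and 7, 24 and 17 in deprived and 2, 7 and 5 in basal GFP-headed cells. Its differences of 0.62 ± 0.15 (SE), adjusted p = 0.00234 (CRE), and 0.57 ± 0.15 (SE), adjusted p = 0.00573 (GFP), are therefore the least certain of the class.

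Tfeb was 8.63, 8.74 and 8.57 in deprived and 8.93, 8.87 and 8.89 in basal CRE-headed cells. Under GFP, Tfeb was 8.58, 8.72 and 8.65 in deprived and 8.95, 8.95 and 8.75 in basal medium. It fell under both headings (-0.25 ± 0.06 (SE), adjusted p = 0.00299 under CRE, and -0.23 ± 0.06 (SE), adjusted p = 0.00544 under GFP). Tfe3 was 11.59, 11.59 and 11.61 in deprived and 11.54, 11.47 and 11.56 in basal CRE-headed cells. Under GFP, Tfe3 was 11.34, 11.36 and 11.32 in deprived and 11.19, 11.25 and 11.25 in basal medium. Tfe3 did not pass under CRE (0.08 ± 0.04) and rose by 0.11 ± 0.04 under GFP. With 1 library left out, calls under CRE were lost for Ctsz (without CRE basal library 1, adjusted p = 0.0601) and Lamp2 (without CRE basal library 3, adjusted p = 0.0507). Calls under GFP were lost for Glb1 (without GFP deprived library 1, adjusted p = 0.204), Rragd (without GFP deprived library 2 or GFP basal library 1, adjusted p = 0.0534 to 0.0785) and Tfe3 (without GFP deprived library 1 or 2 or GFP basal library 1, adjusted p = 0.0663 to 0.134). The response to deprivation was lower under CRE than under GFP for 4 genes and higher for none, where 4.78% of all genes passed this interaction (3.23% higher and 1.55% lower). Over all genes 665 passed, and 360 to 436 without CRE deprived library 2 or 3, CRE basal library 1, GFP deprived library 1 or 2 or GFP basal library 3. Across all fits without 1 library that number ranged from 360 to 777. The 4 members were Neu1 (-0.35 ± 0.08 (SE), adjusted p = 0.0099), Lipa (-0.28 ± 0.07 (SE), adjusted p = 0.0135), Tpp1 (-0.21 ± 0.06 (SE), adjusted p = 0.0497) and Ctsd (-0.20 ± 0.05 (SE), adjusted p = 0.0311). The Lipa call was lost without GFP deprived library 1 or GFP basal library 3 (adjusted p = 0.0519 to 0.0554), that of Ctsd without any 1 of 7 of the 12 libraries (0.0591 to 0.122) and that of Tpp1 without any 1 of 11 of them (0.0594 to 0.153). Of other pump subunits, 11 of 15 rose under CRE and 13 of 15 under GFP and none fell, with Atp6ap2 at 0.50 ± 0.04 and 0.63 ± 0.04 and Atp6v0b, a proteolipid subunit gene, at 0.53 ± 0.04 and 0.55 ± 0.04. Of 37 other hydrolases, 9 rose and 6 fell under CRE and 16 rose and 1 fell under GFP, among them the peptidase genes Dpp7 (0.57 ± 0.05 and 0.74 ± 0.05) and Scpep1 (0.35 ± 0.04 and 0.51 ± 0.04). Of 34 other membrane and delivery genes, 15 rose and 3 fell under CRE and 14 rose and none fell under GFP, and of 29 other regulators, 9 rose and 3 fell under CRE and 6 rose and none fell under GFP.

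After methionine was returned for 1 h, more of the genes fell than rose under both headings, relative to deprived medium. After 1 h, 26 of 37 genes fell and 4 rose against deprived medium in CRE-headed cells, where 60.1% of all genes passed (30.0% higher and 30.1% lower). In GFP-headed cells 31 fell and 2 rose, where 59.5% passed (30.7% higher and 28.8% lower). Of the 17 hydrolases, 9 fell under CRE and 3 rose, namely Lipa (0.24), Man2b1 (0.13) and Gusb (0.12), and all 17 fell under GFP. The largest hydrolase falls were those of Gla (-1.03 ± 0.05 under CRE and -0.72 ± 0.05 under GFP) and Neu1 (-0.38 ± 0.06 and -0.83 ± 0.06). Of the FLCN and Rag genes, all 5 fell under CRE (median -0.77) and 3 fell under GFP (median -0.12). Tfeb rose by 0.19 ± 0.06 under CRE and 0.26 ± 0.06 under GFP, whereas Tfe3 fell under CRE (-0.31 ± 0.04) and rose under GFP (0.11 ± 0.04). With 1 library left out, calls at 1 h were lost under CRE for Man2b1 (without CRE deprived library 2 or 3 or CRE 1 h library 1 or 2, adjusted p = 0.0541 to 0.116) and Tfeb (without CRE deprived library 3, adjusted p = 0.0636) and under GFP for Fnip1 (without GFP deprived library 1, 2 or 3 or GFP 1 h library 1 or 3, adjusted p = 0.0521 to 0.234). Such fits also lost the CRE calls of Asah1 (0.0553 to 0.0718), Ctsz (0.0687 to 0.183) and Scarb2 (0.0676 to 0.0875). Under GFP they lost those of Hexa (0.0744 to 0.128) and Npc1 (0.0505 to 0.22). After 4 h, against deprived medium, 9 genes were higher and 7 lower in CRE-headed cells, where 51.8% of all genes passed (26.0% higher and 25.9% lower). In GFP-headed cells 9 were higher and 23 lower, where 66.1% passed (33.3% higher and 32.8% lower). Without library 3 of the CRE-headed 4 h cells the CRE counts were 6 higher and 6 lower, and after a shift of all libraries to 1 median they were 16 higher and 5 lower. Over all genes that shift gave, in CRE-headed cells, 5302 higher and 3466 lower instead of 4180 and 4189 at 1 h and 4618 and 2990 instead of 3614 and 3597 at 4 h, and in GFP-headed cells 3373 and 5229 instead of 4271 and 4004 at 1 h. From 1 h to 4 h, 30 of 37 genes rose and none fell under CRE, where 25.4% of all genes passed, and 20 rose and 1 fell under GFP, where 36.7% passed. This last contrast was added after the data were seen.

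The course over the 4 media is given in that order. The values under the headings cross between deprived and 1 h replenished medium, which is where the distances above put the headings in doubt. Flcn ranged over 11.11 to 11.15 in basal, 11.43 to 11.48 in deprived, 10.62 to 10.77 in 1 h and 10.70 to 11.00 in 4 h replenished medium under CRE. Under GFP, Flcn ranged over 10.67 to 10.74 in basal, 11.08 to 11.17 in deprived, 11.03 to 11.09 in 1 h and 11.62 to 11.64 in 4 h replenished medium. Under CRE it was lower in both replenished media than in either medium before them, while under GFP it was highest at 4 h. The 4 h values against deprived medium were -0.56 ± 0.05 (CRE, adjusted p = 8.09e-11) and 0.51 ± 0.05 (GFP, adjusted p = 2.96e-10). Fnip2 ranged over 10.27 to 10.36 in basal, 11.10 to 11.20 in deprived, 9.66 to 9.79 in 1 h and 10.29 to 10.48 in 4 h replenished medium under CRE. Under GFP, Fnip2 ranged over 10.02 to 10.09 in basal, 10.75 to 10.82 in deprived, 10.30 to 10.41 in 1 h and 11.40 to 11.48 in 4 h replenished medium. Fnip2 was thus lowest at 1 h under CRE and highest at 4 h under GFP. Fnip1 ranged over 10.74 to 10.86 in basal, 11.29 to 11.38 in deprived, 10.22 to 10.30 in 1 h and 10.49 to 10.78 in 4 h replenished medium under CRE. Under GFP, Fnip1 ranged over 10.58 to 10.66 in basal, 11.09 to 11.13 in deprived, 10.90 to 11.06 in 1 h and 11.61 to 11.63 in 4 h replenished medium. At 4 h the folliculin partners were below their deprived level under CRE and above it under GFP, with 4 h values against deprived medium of -0.79 (CRE) and 0.65 (GFP) for Fnip2 and -0.70 (CRE) and 0.51 (GFP) for Fnip1. The same signs held for Npc1 (-0.44 under CRE and 0.48 under GFP), and Rragc was 0.02 under CRE, which did not pass, and 0.16 under GFP. Rragc ranged over 11.04 to 11.11 in basal, 11.48 to 11.50 in deprived, 11.05 to 11.19 in 1 h and 11.43 to 11.59 in 4 h replenished medium under CRE. Under GFP, Rragc ranged over 10.93 to 11.01 in basal, 11.24 to 11.27 in deprived, 11.00 to 11.08 in 1 h and 11.38 to 11.46 in 4 h replenished medium. Rragc was lower at 1 h than in deprived medium and above the deprived range at 4 h under GFP, while under CRE its 4 h libraries straddled the deprived ones. Lipa was the converse of Flcn, with 10.49 to 10.55 in basal, 10.45 to 10.49 in deprived, 10.66 to 10.77 in 1 h and 10.65 to 10.79 in 4 h replenished medium under CRE. Under GFP, Lipa ranged over 10.74 to 10.90 in basal, 10.95 to 11.10 in deprived, 10.39 to 10.55 in 1 h and 10.34 to 10.41 in 4 h replenished medium. Its 4 h values against deprived medium were 0.27 ± 0.05 (CRE) and -0.67 ± 0.05 (GFP), and those of Gusb were 0.21 ± 0.04 and -0.44 ± 0.04. The pump gene Atp6v1a also rose under CRE (0.10) and fell under GFP (-0.50) in this contrast, and Atp6v1h fell under CRE (-0.14) and rose under GFP (0.28). With 1 library left out, the CRE calls were lost for Atp6v1a (without CRE deprived library 1 or 3 or CRE 4 h library 3, adjusted p = 0.086 to 0.307) and Atp6v1h (without CRE deprived library 1, 2 or 3 or CRE 4 h library 1 or 2, adjusted p = 0.0543 to 0.0959). Such fits also lost the CRE calls of Ctsd, Ctsl, Neu1, Psap and Tfe3 in this contrast. Under GFP they lost those of Ctsa, Gaa, Hexa, Mcoln1, Rragd and Tfeb. The interaction of heading and replenishment was not tested, so these differences between headings are descriptions.

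**Figure D4:**
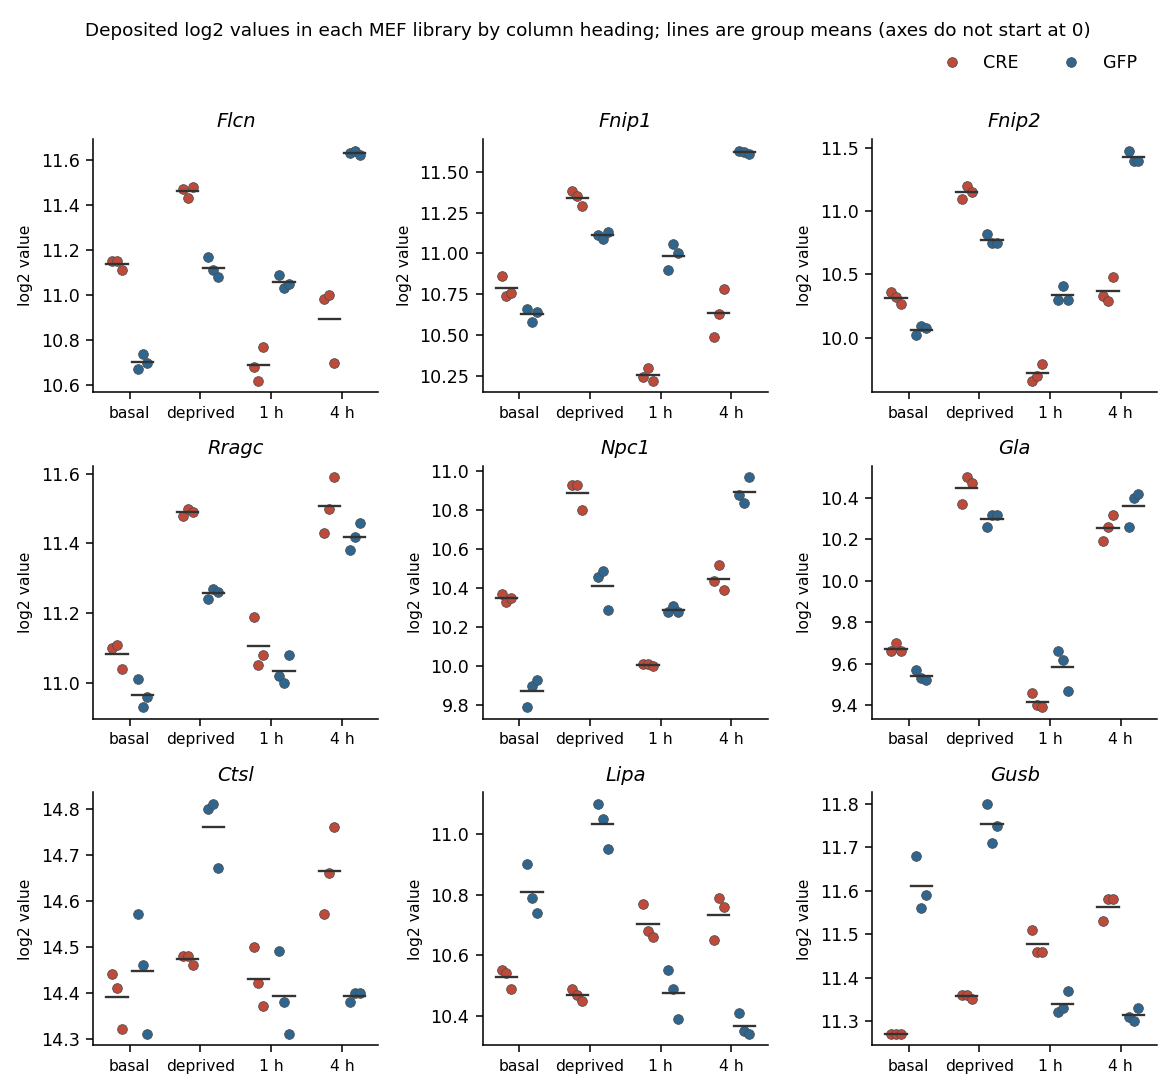
Deposited log2 value (y axis, not starting at 0) of 9 genes in each fibroblast library, in basal, deprived, 1 h replenished and 4 h replenished medium from left to right, with CRE-headed libraries in red on the left and GFP-headed libraries in blue on the right of each medium. Flcn, Fnip1, Fnip2 and Npc1 are higher under CRE in basal and deprived medium and lower under CRE at 1 h and 4 h, and Lipa and Gusb run the other way.

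Set side by side within a medium, CRE-headed and GFP-headed cells differed for some classes in opposite directions before and after methionine return, subject to the same doubt over the headings. In basal medium 13 of the 37 genes were higher and 4 lower under CRE, where 58.3% of all genes passed (29.7% higher and 28.6% lower). In deprived medium 10 were higher and 14 lower (62.6% of all genes, 32.0% higher and 30.6% lower). After 1 h of methionine 10 were higher and 8 lower (55.0% of all genes, 26.9% higher and 28.1% lower). After 4 h 21 were higher and 7 lower (59.8% of all genes, 30.8% higher and 29.0% lower), or 18 and 6 without library 3 of the CRE-headed 4 h cells. The shares of members called, 17, 24, 18 and 28 of 37, are to be read against those backgrounds. These splits moved with the scaling: after a shift of the libraries to 1 median they were 6 higher and 9 lower in basal, 9 and 21 in deprived, 17 and 7 in 1 h and 23 and 5 in 4 h replenished medium. Over all genes the shift gave 3204 higher and 5111 lower instead of 4127 and 3986 in basal, 3582 and 5449 instead of 4457 and 4260 in deprived, and 4903 and 3067 instead of 3745 and 3913 in 1 h replenished medium.

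The FLCN and Rag genes were higher under CRE in basal medium, all 5 of them (median 0.26), and in deprived medium, again all 5 (median 0.34). After 1 h and after 4 h of methionine 3 of the 5 were lower and none higher (medians -0.37 and -0.74). The 3 were Flcn, Fnip1 and Fnip2. Flcn differed by 0.43 ± 0.05 in basal, 0.34 ± 0.05 in deprived, -0.37 ± 0.05 in 1 h and -0.74 ± 0.05 in 4 h replenished medium, with adjusted p-values of 1.49e-08, 1.25e-06, 3.24e-07 and 8.69e-14 by limma. Fnip2 differed by 0.26, 0.38, -0.62 and -1.06 and Fnip1 by 0.16, 0.23, -0.74 and -0.98 in the same order of media. Rragc passed in basal (0.12) and deprived medium (0.23) and not afterwards (0.07 and 0.09), and Rragd likewise (0.45, 0.50, -0.11 and -0.02). With 1 library left out, basal calls were lost for Fnip1 (without CRE basal library 1, adjusted p = 0.0599), Rragc (without CRE basal library 1 or 2 or GFP basal library 2, adjusted p = 0.0555 to 0.0789) and Rragd (without CRE basal library 1 or 3 or GFP basal library 1, adjusted p = 0.0626 to 0.0937), and the deprived call for Rragd (without GFP deprived library 1, adjusted p = 0.0951). Npc1 followed the same signs, at 0.48 ± 0.05, 0.47 ± 0.05, -0.28 ± 0.05 and -0.45 ± 0.05, and all 4 values passed.

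The hydrolases were mixed in basal medium, where 4 of 17 were higher and 3 lower under CRE (median 0.00). In deprived medium 1 was higher and 10 were lower (median -0.14), after 1 h 8 were higher and 1 lower (median 0.09), and after 4 h 14 were higher and none lower (median 0.17). Of these calls, 5 in basal, 3 in deprived, 5 in 1 h and 4 in 4 h replenished medium were lost in at least 1 fit without 1 library. Lipa differed by -0.28 ± 0.05, -0.56 ± 0.05, 0.23 ± 0.05 and 0.37 ± 0.05 over the 4 media, and Gusb by -0.34 ± 0.04, -0.40 ± 0.04, 0.14 ± 0.04 and 0.25 ± 0.04; all 8 values passed. Ctsl ranged over 14.32 to 14.44 in basal, 14.46 to 14.48 in deprived, 14.37 to 14.50 in 1 h and 14.57 to 14.76 in 4 h replenished medium under CRE. Under GFP, Ctsl ranged over 14.31 to 14.57 in basal, 14.67 to 14.81 in deprived, 14.31 to 14.49 in 1 h and 14.38 to 14.40 in 4 h replenished medium. It was lower under CRE in deprived medium (-0.29 ± 0.06 (SE), adjusted p = 0.000139) and higher at 4 h (0.28 ± 0.06 (SE), adjusted p = 0.000227), and the basal and 1 h differences did not pass. Sgsh differed by 0.30 ± 0.06 at 1 h and 0.35 ± 0.06 at 4 h, Glb1 by 0.23 ± 0.05 at 1 h, Man2b1 by -0.34 ± 0.05 in deprived medium and Ctsa by 0.15 ± 0.04 in basal medium, the last of these a call lost without GFP basal library 3 (adjusted p = 0.0555). Gla differed by 0.13 in basal, 0.15 in deprived and -0.16 in 1 h replenished medium, and -0.10 at 4 h, which did not pass. The basal call was lost (without CRE basal library 2 or 3 or GFP basal library 2 or 3, adjusted p = 0.0519 to 0.089), the deprived call (without CRE deprived library 2 or GFP deprived library 1, adjusted p = 0.0575 to 0.0698) and the 1 h call (without GFP 1 h library 1, adjusted p = 0.0615).

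The pump genes differed from each other in direction. Atp6v1a differed by -0.33 ± 0.04 in basal, -0.42 ± 0.04 in deprived, 0.12 ± 0.04 in 1 h and 0.18 ± 0.04 in 4 h replenished medium. Atp6v0d1 differed by 0.22 ± 0.04, 0.28 ± 0.04, 0.07 ± 0.04 and 0.03 ± 0.04, of which the first 2 passed. Atp6v1h differed by -0.05 ± 0.05, 0.20 ± 0.05, -0.22 ± 0.05 and -0.22 ± 0.05, of which the last 3 passed. Atp6v0a1 was lower at 1 h (-0.21) and at 4 h (-0.13). Among the membrane genes other than Npc1 few differences passed: Lamp1 in deprived medium (-0.09) and at 4 h (0.13), Lamp2 in deprived medium (-0.11), Scarb2 in basal medium (0.13), Cd63 at 4 h (0.25) and Npc2 at 4 h (0.18). Mcoln1 passed in none of the 4 media (0.03, -0.05, 0.05 and 0.05). Tfe3 was higher under CRE in basal (0.29 ± 0.04) and deprived medium (0.26 ± 0.04) and lower at 1 h (-0.16 ± 0.04) and 4 h (-0.09 ± 0.04). Tfeb passed at 4 h (0.23 ± 0.06) and not in the other media (0.01, 0.00 and -0.07). Of the cofactors, Psap was lower under CRE in deprived medium (-0.13) and higher at 1 h (0.10) and 4 h (0.21), and Grn was higher at 4 h (0.11). With 1 library left out, calls were lost in basal medium for Scarb2 (without CRE basal library 2 or GFP basal library 2 or 3, adjusted p = 0.0541 to 0.101) and in deprived medium for Lamp2 (without CRE deprived library 1 or GFP deprived library 1 or 2, adjusted p = 0.086 to 0.163). At 1 h they were lost for Atp6v1a (without GFP 1 h library 1, adjusted p = 0.0877) and Psap (without CRE 1 h library 1 or 2 or GFP 1 h library 3, adjusted p = 0.0535 to 0.19). At 4 h they were lost for Atp6v0a1 (without CRE 4 h library 3 or GFP 4 h library 1 or 3, adjusted p = 0.0631 to 0.123), Grn (without CRE 4 h library 2 or GFP 4 h library 2, adjusted p = 0.0568 to 0.0983) and Npc2 (without CRE 4 h library 2 or 3 or GFP 4 h library 2 or 3, adjusted p = 0.0517 to 0.119), and for Tfe3 (without CRE 4 h library 3 or GFP 4 h library 2 or 3, adjusted p = 0.0811 to 0.312).

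Among the other nutrient-sensing regulators, Sesn2 had larger differences in each medium than any member. Sesn2 differed between CRE- and GFP-headed cells by 1.75 ± 0.06 in basal, 1.62 ± 0.06 in deprived, -2.40 ± 0.06 in 1 h and -2.14 ± 0.06 in 4 h replenished medium. Nprl3, a GATOR1 subunit gene, differed by 0.54 ± 0.06, 0.60 ± 0.06, -0.62 ± 0.06 and -0.70 ± 0.06, and Mios, a GATOR2 subunit gene, by 0.74 ± 0.06 in basal and 0.88 ± 0.06 in deprived medium. In basal medium 12 of 29 regulators were higher and 11 lower under CRE, in deprived medium 14 and 9, at 1 h 10 and 10, and at 4 h 11 and 9. Of 37 other hydrolases, 7 were higher and 10 lower in basal medium, 4 and 17 in deprived medium, 14 and 3 at 1 h and 25 and 3 at 4 h. Of 15 other pump subunits, 4 and 5, 2 and 7, 5 and 3, and 7 and 2 were higher and lower in the same order of media, with Atp6v1b2 at 0.40, 0.52, -0.26 and -0.33. Of 34 other membrane and delivery genes, 13 were higher and 11 lower, 11 and 11, 18 and 8, and 15 and 7.

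**Figure D5:**
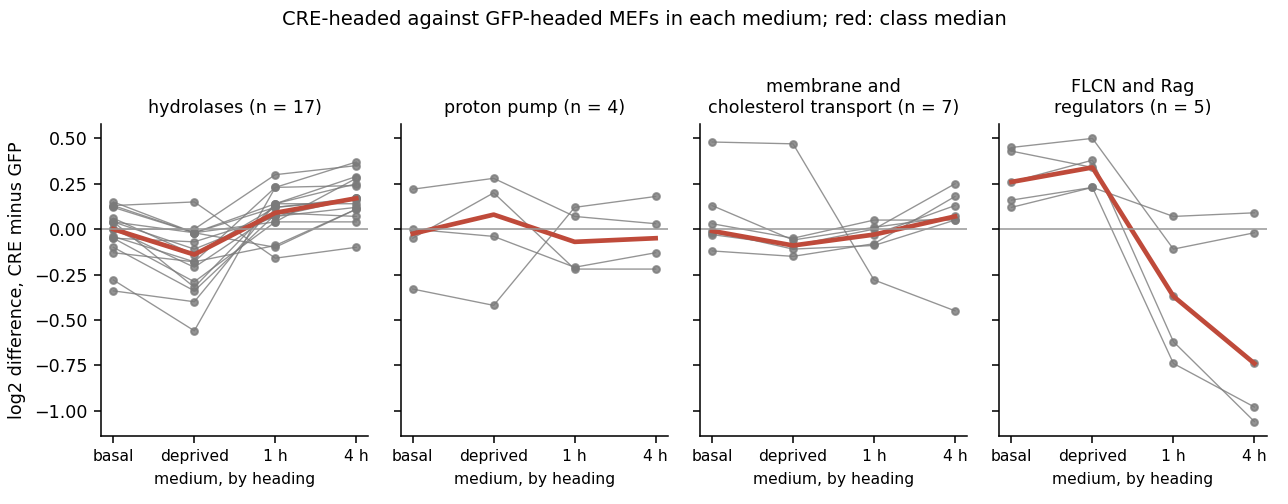
Log2 difference between CRE-headed and GFP-headed fibroblasts (y axis) for each gene of 4 classes in basal, deprived, 1 h replenished and 4 h replenished medium (x axis), with 1 grey line per gene and the class median in red. The FLCN and Rag median goes 0.26, 0.34, -0.37 and -0.74 over the 4 media and the hydrolase median 0.00, -0.14, 0.09 and 0.17; a shift of the libraries to 1 median moves all lines of a medium by -0.08 to 0.07.

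Genes whose promoter windows held TCACGTGA or GTCACGTG were set beside those whose windows held neither, as a description without a test. In deprived against basal medium the 10 genes with such a window had a median difference of 0.32 under CRE and 0.40 under GFP, with 7 and 9 of them higher and none lower. The 23 genes without one had medians of 0.11 and 0.25, with 11 and 20 higher and 1 lower in each. Between knockout and wild-type livers the 10 genes had medians of 0.55 in fasted and 0.60 in fed livers, with 7 and 6 higher and none lower. The 23 genes had medians of 0.58 and 0.76, with 15 and 19 higher and 4 and 2 lower. Cd63 and Rragd, which had the largest liver differences, are among the 23.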

How the data were processed

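Liver gene counts were deposited as raw counts for Ensembl and NONCODE identifiers. The submitters' processing notes list HISAT2, Subread, edgeR, DESeq2 and the build mm10. Fibroblast values were deposited by the authors as log2 values after a variance-stabilizing transformation. The notes list STAR 2.7.10b, featureCounts, DESeq2 and limma for them. Per the labels' protocols, mRNA was selected with oligo dT and libraries kept strand through dUTP. Liver columns gave the group of a library but no replicate number, so these libraries are called a, b and c.

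Liver counts were tested with edgeR 4.0.16 (quasi-likelihood F test, default moderation, TMM, filterByExpr, all 12 libraries, 1 mean per group). Fibroblast log2 values were tested with limma 3.58.1 (trend and robust moderation, all 24 libraries) on genes averaging at least 1 above the lowest value, 4.167. P-values were adjusted over all genes tested (Benjamini-Hochberg, threshold 0.05), and the SE of a liver difference is its size divided by the square root of F. Undoing the transformation gave whole counts for 100% of the fibroblast values within 0.01, and edgeR on these counts was an added check. Both procedures were also run on simulated data in which few genes changed in a single group, as many up as down. Far more genes differed between the liver genotypes, so these runs do not check the choice of scaling. The range of depth sets the precision, and genes with few reads, such as Rragd in fibroblasts, are the least precise.

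The members, the lists and the tests were chosen with earlier results of these data known. All 37 members are named. Each comparison may add, for each class and each list of other pathway genes, up to 3 genes with the smallest adjusted p. The text gives some of these, and the others are not reported here. Alternatives were other scaling factors, filters, tools and gene sets, fits of the compared groups alone, left-out libraries and a replicate block. The block could be fitted in fibroblasts only. There, same-numbered libraries had correlations over all genes tested of -0.163 to 0.23 (median 0.0244), with 10 of 84 pairs over 0.1. A link by number was thus weak over all genes but is not excluded for single members. Ctsb, for example, fell from library 1 to 3 under GFP in basal (15.03, 14.98 and 14.83), deprived and 1 h medium, but was 15.13 in each 4 h library. With the block 464 member results stayed the same and 17 became stronger. Robust moderation in edgeR, the contrast of 4 h with 1 h and the motif spellings were added after the data were seen. Symbols matched 48058 of 48526 Ensembl identifiers. Versions were R 4.3.3, DESeq2 1.42.0, Python 3.11.15, pandas 2.3.3 and matplotlib 3.10.9.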

Additional observations from a re-analysis of the deposited data

Results flagged for a closer look

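The results below are given again because a response differed between 2 groups by a test of the difference itself.

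In liver the response to fasting differed between knockout and wild-type animals (edgeR's quasi-likelihood test of the interaction, adjusted over all genes tested) by -0.95 for Npc1, -0.87 for Gaa, -0.78 for Ctsl, -0.74 for Flcn, 0.62 for Ctsb, 0.56 for Atp6v0a1 and 0.54 for Npc2 on the log2 scale. Of these genes, Ctsb, Atp6v0a1 and Npc2 had a higher response in knockout livers, and Npc1, Gaa, Ctsl and Flcn had a lower one. In wild-type livers the fasting differences were 1.22 for Npc1, 0.91 for Ctsl, 0.78 for Gaa and 0.69 for Flcn. They were -0.04 for Atp6v0a1, which rose in knockout livers (0.52), -0.58 for Ctsb and -0.73 for Npc2. Among the 20 macrophage markers, 17 passed with a higher response in knockout livers, and all 20 were lower in fasted than in fed wild-type livers. The interaction calls of Flcn, Ctsb and Npc2 were each lost without certain single libraries, and that of Atp6v0a1 without any 1 of 9 libraries. The Flcn call was also lost with library sizes alone and without a filter on low counts. The summed macrophage markers were 3569 to 4110 CPM in fasted knockout livers, 687 to 948 CPM in fasted wild-type livers, 4134 to 4838 CPM in fed knockout livers and 2078 to 2632 CPM in fed wild-type livers. The part of these cells in the result was not tested.

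In fibroblasts the response to methionine deprivation differed between CRE-headed and GFP-headed cells (limma, interaction) by -0.35 for Neu1, -0.28 for Lipa, -0.21 for Tpp1 and -0.20 for Ctsd. The calls of Lipa, Tpp1 and Ctsd were each lost without certain single libraries. The signs hold only if the headings of the basal and deprived media are right, which is in doubt. The CRE-headed deprived group was nearer to the GFP-headed 4 h replenished group (mean absolute log2 difference 0.128) than to any other group, and its part in the result was not tested.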

How the results depend on the processing

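Counts of members called stayed within 1.5 times the main count under every alternative run, apart from 3 comparisons. In knockout livers, fasting called 1 member in the main fit, 2 without a filter on low counts, 0 with the compared groups alone and 0 to 1 with 1 library left out. The interaction of fasting and genotype called 7 members, and 4 to 8 with 1 of the 12 libraries left out. The interaction of deprivation and heading in fibroblasts called 4, against 2 without the mean-variance trend, 7 with the compared groups alone, 7 with the replicate block and 1 to 9 with 1 library left out. In the other comparisons the counts with 1 library left out were 29 in each fit (fasted knockout against wild-type livers), 28 to 32 (fed), 7 to 10 (fasting in wild-type livers), 12 to 15, 19 to 26, 15 to 19 and 23 to 29 (CRE against GFP in basal, deprived, 1 h and 4 h medium). Robust moderation in edgeR, an alternative chosen after the data were seen, called the same numbers of members as default moderation, 30 in fasted and 30 in fed knockout against wild-type livers, 1 and 10 for fasting in knockout and in wild-type livers and 7 for the interaction.

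With library sizes alone, differences between knockout and wild-type livers turned sign for Atp6v0d1 (0.42 in fasted, 0.31 in fed), Tfeb (0.13 in fasted, 0.02 in fed), Gaa (0.00 in fasted) and Scarb2 (0.25 in fasted). By its construction this setting leaves out the TMM factors. No paired analysis was possible for the liver because its columns carry no replicate number, and the replicate block changed no other fibroblast count by over 1.5 times. With 3 libraries a group, small differences may have been missed.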
